A study of Homo sapiens with 11 samples.

Results

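The genes described here are 38 interferon-stimulated genes, a list drawn up by symbol, measured in MV4-11, an established human acute myeloid leukaemia line. A listed gene was used where the array annotation gave it a transcript cluster (probes read together for a locus) with that single symbol, and where a gene had several clusters the one with the highest mean level was used. This held for 37 of the 38, among 22109 genes named in the same way, and STAT2 was not analysed here. IRF9 was the 1 member with 2 clusters. Of the 37, 26 reached a level of 3.80 on at least 1 of the 11 arrays, the median of all values of 1-symbol clusters, and were tested with 12147 genes in all. The other 11 stayed under that level on every array, between 1.46 and 3.27, and they are IFIT1, IFIT2, IFIT3, IFIT5, OAS3, DDX60, ISG20, IFI27, IFI44, IFI44L and EPSTI1. All levels are log2 values as deposited.

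Type I interferons bind a shared receptor on the cell surface, and the signal reaches the nucleus through a complex that holds IRF9. IRF9 contacts a short element in the promoters of its target genes, the interferon-stimulated response element (ISRE). The targets limit viruses at many steps, and some, such as USP18, also damp the pathway. Leukaemia cells can hold a basal level of such transcripts without added interferon, and interferon signalling also slows the growth of myeloid cells. RUNX1, RUNX2 and RUNX3 are transcription factors that share a DNA motif and the partner CBFB.

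Each of the 11 conditions had 1 array. In 8 of them cells were transduced with shRNAs and then kept for 24 hours with 3 µM doxycycline: a luciferase shRNA as control (shLuc), shRUNX1, shRUNX2, shRUNX3, the 3 pairs, and all 3 together. The other 3 were treated for 6 hours with DMSO alone, with 1 µM Chb-M' or with 1 µM Chb-50, and the series describes these compounds as alkylating PIP conjugates. The labels state neither a vector nor doxycycline for those 3 arrays, so vector, doxycycline, time and DMSO or compound all differ between the 2 sets. Each RUNX shRNA was present on 4 of the 8 transduced arrays and absent from 4, and separate transductions are nowhere stated. No condition was repeated, so a p-value here rests on the spread that the fitted terms leave over. For the shRNAs this mixes effects particular to a combination of shRNAs with array-to-array spread, which may be technical only.

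RUNX2 itself averaged 5.70 ± 0.107 (SD, n = 4) with its shRNA and 6.14 ± 0.123 (SD, n = 4) without it, and the groups did not overlap. The library labelled shRUNX1 read 7.70 for RUNX3, inside the range of the arrays with the RUNX3 shRNA (7.65 to 7.87), and the shRNA estimates and counts that lead each comparison are given with and without it. RUNX1 was read only on a cluster shared with LOC100506403, which averaged 4.09 with and 4.30 without the RUNX1 shRNA, with overlap. On that cluster the library labelled shRUNX1 read 4.12, below the 4 arrays without the RUNX1 shRNA (4.20 to 4.45). The overlap came from shRUNX1+shRUNX2 (4.26). RUNX3 averaged 7.74 ± 0.105 (SD, n = 4) with its shRNA and 8.11 ± 0.291 (SD, n = 4) without it. These groups also overlapped, and the lowest array without the RUNX3 shRNA was the library labelled shRUNX1. Of 11 myeloid markers 8 reached the level filter, including PTPRC, MPO, LYZ, SPI1 and FLT3, as did 3 of 5 plasmacytoid dendritic cell markers, 2 each of the B cell, erythroid and epithelial markers, 1 T cell marker and 0 NK cell or fibroblast markers. The number of arrays limits the precision.

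Promoter sequences show what most of the members share beyond their names. RefSeq promoters (GRCh38.p14, 250 bases before to 50 after the start) were found for 31 of the 38 genes. The ISRE pattern, GAAA and GAAA with any 2 bases between them, searched on both strands, was present in 20 of these 31, or 64.5%, against 3.65% of all 27305 promoters of the same length. Of the 31, 14 held it at least 2 times, counting overlapping matches. The GAS pattern TTCNNNGAA, the interferon-gamma activated site, was in 10 (32.3%, against 7.88% of all promoters), and in 4 of them an ISRE match overlapped a GAS match. The RUNX motif TGTGGT was in 2 members, STAT2 and IFITM1 (6.45%, against 13.1% of all promoters). Among the 9215 promoters found for genes tested here, the shares were 2.68% for the ISRE, 6.22% for GAS and 9.68% for the RUNX motif. The ISRE was not particular to the members. Its share was 64.3% for a list of other interferon-induced effectors and 60% for MHC class I presentation genes. For interferon ligands it was 30.8%, for nucleic acid sensors 26.7% and for interferon receptors and signalling genes 6.25%. A match describes letters in this window and does not show binding.

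Stretches of 110 bases upstream of the start are shown for 8 members, 5′ to 3′ in the direction of the gene. Every ISRE match that ends before the start is in capitals (the pattern or its reverse complement). Of the 2 matches of IFITM1, 1 does not end before the start and is not in capitals. IFI6, ISG15 and SAMD9 are shown because they are among the members discussed most with the RUNX2 shRNA. BST2 and IFITM1 are shown as 2 members that were lower on all transduced arrays, IFIT1 and IFIT3 because textbook promoters of the family read under the filter here, and HERC5 because its neighbour HERC6 has no match. The positions are chr1:27672269-27672378 (minus strand) for IFI6, chr1:1013354-1013463 (plus) for ISG15, chr7:93118036-93118145 (minus) for SAMD9 and chr19:17405681-17405790 (minus) for BST2. They are chr11:313930-314039 (plus) for IFITM1, chr10:89392477-89392586 (plus) for IFIT1, chr10:89327811-89327920 (plus) for IFIT3 and chr4:88456964-88457073 (plus) for HERC5. Every stretch ends upstream of the annotated start.
IFI6: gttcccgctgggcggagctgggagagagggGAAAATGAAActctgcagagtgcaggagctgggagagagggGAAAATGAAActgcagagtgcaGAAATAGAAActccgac
ISG15: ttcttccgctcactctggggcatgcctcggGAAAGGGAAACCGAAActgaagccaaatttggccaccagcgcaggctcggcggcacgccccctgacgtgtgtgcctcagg
SAMD9: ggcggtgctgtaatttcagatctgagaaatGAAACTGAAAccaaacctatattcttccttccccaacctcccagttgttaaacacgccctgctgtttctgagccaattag
BST2: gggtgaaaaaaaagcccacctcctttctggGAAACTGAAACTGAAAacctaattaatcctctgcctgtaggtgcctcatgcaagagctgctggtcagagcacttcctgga
IFITM1: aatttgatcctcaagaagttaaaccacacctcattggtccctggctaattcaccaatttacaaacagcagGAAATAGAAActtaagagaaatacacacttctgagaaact
IFIT1: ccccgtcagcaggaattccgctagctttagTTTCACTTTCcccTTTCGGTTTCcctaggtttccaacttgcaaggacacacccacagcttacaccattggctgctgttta
IFIT3: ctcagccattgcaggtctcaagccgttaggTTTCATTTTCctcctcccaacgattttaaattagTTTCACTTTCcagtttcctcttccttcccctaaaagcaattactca
HERC5: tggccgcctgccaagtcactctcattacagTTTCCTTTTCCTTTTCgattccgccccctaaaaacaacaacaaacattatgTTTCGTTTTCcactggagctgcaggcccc
IFI6 has 3 matches, beginning at position -156 from the start, and the first 2 carry the same letters. In ISG15 and BST2 a pair of matches overlaps, so that 1 run of capitals holds both. SAMD9 has 1 match at -136, while SAMD9L, its neighbour and closest relative, had none in its window, nor did PARP9, HERC6 and XAF1.

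**Figure D1:**
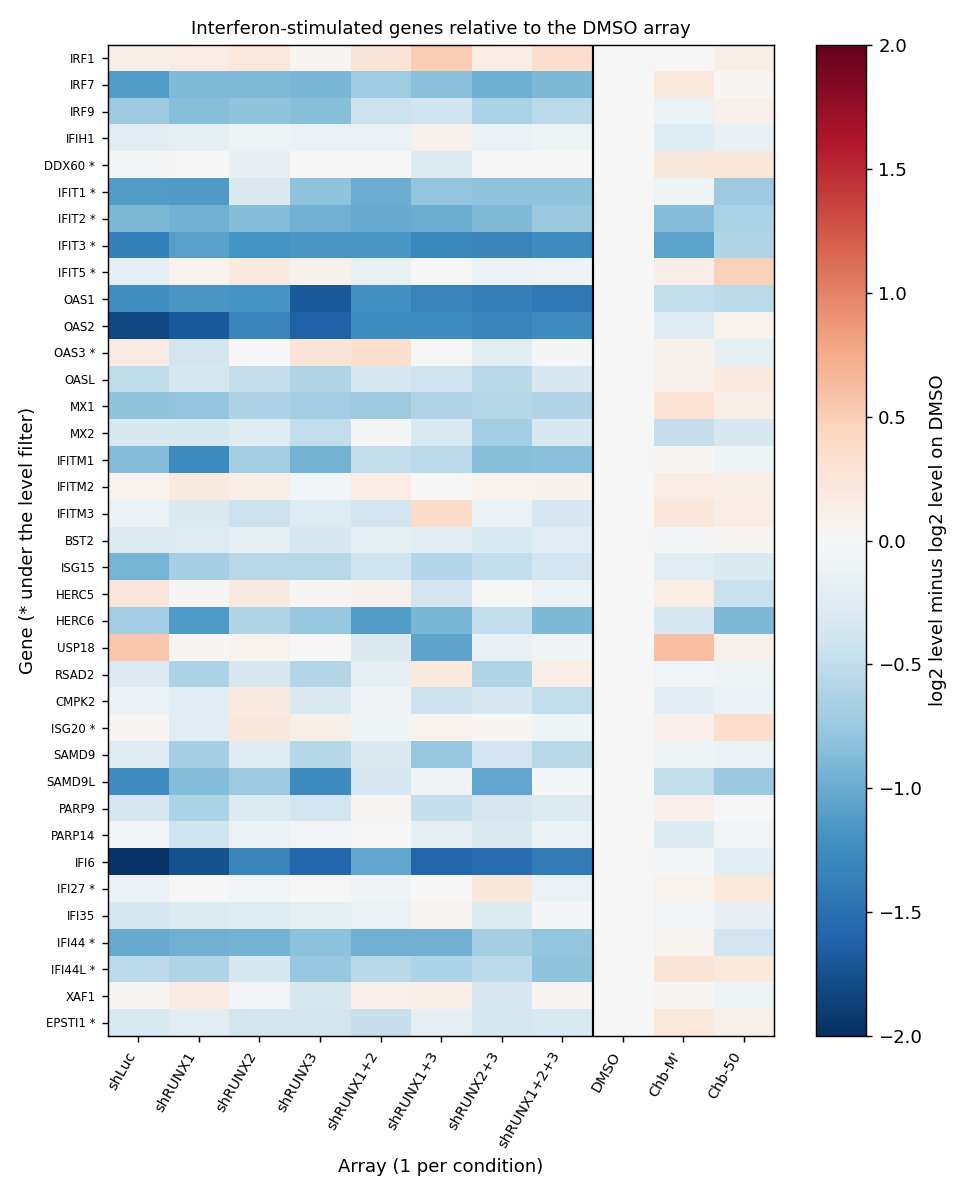
Log2 level of each of the 37 members minus its level on the DMSO array, by array (columns) and gene (rows, grouped by role); blue is lower and red is higher, and an asterisk marks the 11 genes under the level filter. The 8 transduced arrays left of the line are mostly blue, darkest for IFI6 and OAS2, and the 2 compound arrays on the right are paler for most genes.

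The comparison the list was described for sets the 4 arrays with the RUNX2 shRNA against the 4 without it. Members leaned slightly upward with the shRNA, led by IFI6, a small membrane protein of mitochondria and the endoplasmic reticulum, but none passed the test. With limma on the 8 arrays and Benjamini-Hochberg adjustment over 12147 genes, 0 of 26 members and 0 genes in all (0% called in either direction) were called, and the lowest adjusted p of a member was 0.965. Without adjustment, 4 members had p under 0.05 (OAS2, ISG15, SAMD9 and IFI6), all with higher estimates, against 3.05% of all genes tested higher and 1.84% lower. The lean of interferon-stimulated genes was among the earlier results known when the list was drawn up, so it is given as a description.

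Of the 26 estimates 23 were above 0 (88.5%, against 50.9% of all genes tested above 0 and 49.1% below), with a median of 0.07 beside 0.00 for all genes. Without the library labelled shRUNX1 the count was 17 of 26. The other interferon lists with more than 2 genes tested also had more estimates above 0 than below. Estimates were above 0 for 15 of 18 receptor and signalling genes and 12 of 14 nucleic acid sensors. The counts were 19 of 25 for other interferon-induced effectors and 14 of 17 for MHC class I presentation. Medians were 0.05, 0.06, 0.07 and 0.06 in that order, and 0 were called. Of the 2 interferon ligand genes tested, 1 was above 0. The widest estimates among them were 0.35 for PSMB9, an immunoproteasome subunit, and 0.29 for APOL6. Among cell type markers, 3 of 3 of plasmacytoid dendritic cells were above 0 (median 0.14), 2 of 2 of B cells (0.16) and 6 of 8 myeloid markers (0.07), with 0 called, and their part in the result was not tested. In bulk RNA, fewer cells with a transcript and less of it per cell cannot be told apart.

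Levels are given below first for the arrays with the RUNX2 shRNA, in the order shRUNX2, shRUNX1+shRUNX2, shRUNX2+shRUNX3 and the triple knockdown. The arrays without it follow in the order shLuc, shRUNX1, shRUNX3 and shRUNX1+shRUNX3, so that values in the same place differ only in the RUNX2 shRNA.

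IFI6 read 6.10, 6.38, 5.89 and 6.02 with the RUNX2 shRNA and 5.45, 5.68, 5.85 and 5.82 without it. All arrays with the shRNA lay above all arrays without it, with a distance of 0.04 between the nearest of them. The means were 6.10 ± 0.210 and 5.70 ± 0.182 (SD, n = 4 each), a limma estimate of 0.39 ± 0.12 (SE, adjusted p = 0.965). The difference was uneven over the 4 pairs, at 0.65 and 0.70 where the RUNX3 shRNA was absent and 0.04 and 0.19 where it was present. In a fit with pairwise interaction terms, which leaves 1 residual degree of freedom, the RUNX2 by RUNX3 term for IFI6 was -0.56 ± 0.13 (SE, adjusted p = 0.790), and 0 genes were called for that term. Without the library labelled shRUNX1 the RUNX2 estimate was 0.34.

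In the ISG15 pathway, ISG15 itself differed more than its enzymes. ISG15 is a ubiquitin-like protein that is attached to other proteins. It read 5.41, 5.57, 5.48 and 5.58 with the RUNX2 shRNA and 5.03, 5.30, 5.41 and 5.38 without it. The groups were apart by 0.01, with shLuc the lowest of all 8, and the estimate was 0.23 ± 0.07 (SE, adjusted p = 0.965), and 0.24 without the library labelled shRUNX1. After quantile normalization or centring of each array on its median, the groups of ISG15 overlapped. The other genes of this group showed less: HERC5, the main ligase for ISG15, had an estimate of 0.06, HERC6 0.09, and USP18, the protease that removes ISG15, 0.00.

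SAMD9L and SAMD9 are adjacent genes whose products restrict viruses and cell growth, and inherited forms of both occur in myeloid disease. SAMD9L read 5.51, 5.88, 5.20 and 6.21 with the RUNX2 shRNA and 4.99, 5.37, 4.97 and 6.17 without it. It was higher in all 4 pairs, but the groups overlapped widely, since the high values on either side were those of the arrays with the RUNX1 and RUNX3 shRNAs together. The estimate was 0.33 ± 0.16 (SE, adjusted p = 0.965), and 0.19 without the library labelled shRUNX1 or without shRUNX2. SAMD9 read 7.31, 7.27, 7.18 and 7.001 against 7.30, 6.89, 6.99 and 6.80. The shLuc level was nearly that of the highest array, and the estimate was 0.19 ± 0.07 (SE, adjusted p = 0.965), and 0.14 without the library labelled shRUNX1.

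PARP9 forms a complex with the ubiquitin ligase DTX3L and takes part in antiviral ADP-ribosylation. It read 4.51, 4.82, 4.45 and 4.50 with the RUNX2 shRNA and 4.44, 4.14, 4.39 and 4.31 without it. The groups did not overlap, but by only 0.01, and 1 array, shRUNX1+shRUNX2, stood above the other 3. The estimate was 0.25 ± 0.11 (SE, adjusted p = 0.965), and 0.14 without the library labelled shRUNX1 or without shRUNX1+shRUNX2. Its partner in the list, PARP14, had an estimate of 0.04.

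In the OAS family, where OAS1 and OAS2 make the short oligoadenylates that switch on RNase L, OAS2 had the widest estimate. It read 4.17, 4.25, 4.18 and 4.24 with the RUNX2 shRNA and 3.70, 3.83, 3.88 and 4.26 without it. The 4 arrays with the shRNA were close together, and 1 array without it, shRUNX1+shRUNX3, was as high. The estimate was 0.30 ± 0.09 (SE, adjusted p = 0.965), and 0.25 without the library labelled shRUNX1. OAS1 had 0.05 and OASL 0.04.

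The IFITM proteins block the fusion of viruses with cell membranes, and their members went different ways. IFITM1 read 7.40, 7.60, 7.23 and 7.24 with the RUNX2 shRNA and 7.22, 6.81, 7.14 and 7.56 without it, with an estimate of 0.18 ± 0.17 (SE, adjusted p = 0.974). This rested on the low array labelled shRUNX1, without which the estimate was -0.01. IFITM3 read 4.87, 4.93, 5.17 and 4.96 with the shRNA and 5.17, 5.01, 5.05 and 5.67 without it. Its estimate of -0.24 ± 0.13 (SE, adjusted p = 0.965) was the lowest of the 26. Its highest array was shRUNX1+shRUNX3, without which the estimate was -0.09. It was -0.31 without the library labelled shRUNX1, -0.37 without shRUNX3 and -0.16 without the triple knockdown. IFITM2 had an estimate of 0.06, and BST2, which tethers budding virus to the cell, 0.05.

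The transcription factors of the response, IRF1, IRF7 and IRF9, had estimates of 0.04, 0.07 and 0.10, and IFIH1, a sensor of double-stranded RNA, 0.00. The GTPases MX1 and MX2 had 0.09 and 0.04, and RSAD2 (viperin) and its neighbour CMPK2 had 0.08 and 0.10. XAF1, a pro-apoptotic protein, had -0.06, and IFI35 had 0.01. In all, 3 of 26 members (11.5%) had groups that did not overlap, all higher, against 0.807% of genes tested higher and 0.733% lower. With median centring or quantile normalization 2 did, IFI6 and PARP9. Without the library labelled shRUNX1 the members were 4, IFITM2 being added, and without shRUNX1+shRUNX3 they were 5, OAS2 and IFITM1 being added, where 1.43% and 3.87% of all genes were higher without overlap. Without shRUNX2+shRUNX3, BST2 was added as higher and IFITM3 as lower, with 2.08% and 1.79% of all genes. Higher in all 4 pairs were 7 of 26 members (BST2, ISG15, HERC6, SAMD9, SAMD9L, PARP9 and IFI6), against 7.66% of all genes, and XAF1 was lower in all 4 (7.64% of all genes). Over the 3 pairs that leave out the library labelled shRUNX1, 9 were higher in every pair (12.7% of all genes) and 2 lower (11.6%).

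**Figure D2:**
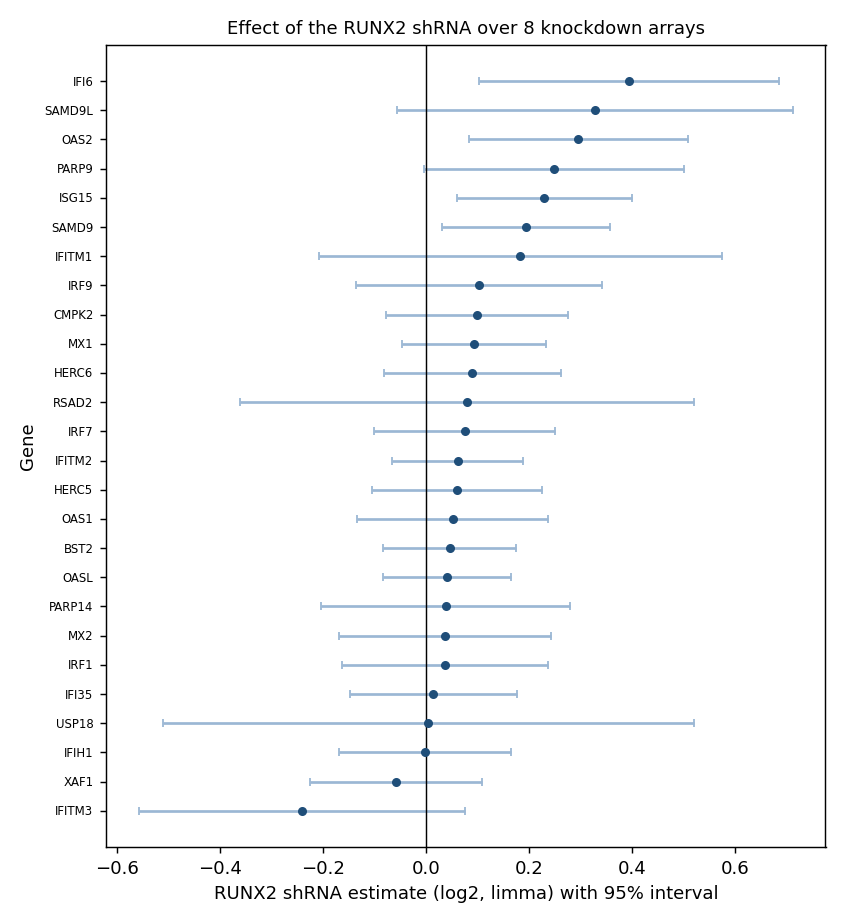
Limma estimate of the RUNX2 shRNA effect (log2, points) with its 95% interval (bars) for the 26 members tested, ordered by estimate. Of the 26 points 23 lie right of 0, 4 intervals lie wholly above 0 (IFI6, OAS2, ISG15 and SAMD9), and none passes the adjusted threshold.

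**Figure D3:**
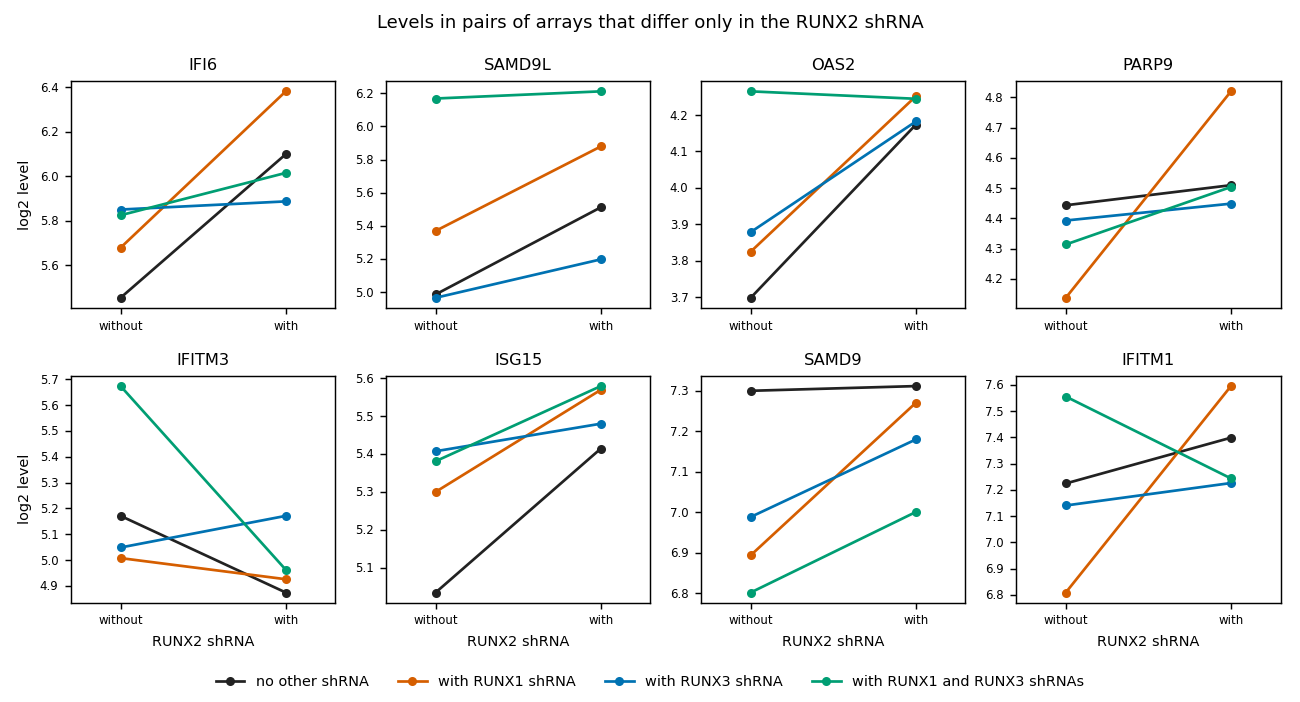
Log2 levels of the 8 members with the largest RUNX2 estimates in size, without (left) and with (right) the RUNX2 shRNA; each line joins 2 arrays that differ only in that shRNA, and its colour gives the other shRNAs present. All lines rise for IFI6, SAMD9L, PARP9, ISG15 and SAMD9, although some by as little as 0.01, and 3 of 4 fall for IFITM3.

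The RUNX1 and RUNX3 shRNAs were compared in the same way. With the RUNX1 shRNA, 0 of 26 members and 0 genes in all (0% in either direction) passed limma's adjusted threshold; 4 members were higher and 3 lower at an unadjusted p under 0.05, against 11.2% of all genes higher and 10% lower. Estimates were above 0 for 18 of 26, with a median of 0.07, beside 52.8% of all genes tested above 0 and 47.2% below, and 20 of 26 were above 0 without the library labelled shRUNX1. Values follow for shRUNX1, shRUNX1+shRUNX2, shRUNX1+shRUNX3 and the triple knockdown, then for shLuc, shRUNX2, shRUNX3 and shRUNX2+shRUNX3.

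SAMD9L had the widest RUNX1 estimate. It read 5.37, 5.88, 6.17 and 6.21 with the RUNX1 shRNA and 4.99, 5.51, 4.97 and 5.20 without it. The 3 combined arrays stood above every array without the shRNA, and the library labelled shRUNX1 did not. The estimate was 0.74 ± 0.16 (SE, adjusted p = 0.098). Without that library it was 0.88 and passed (adjusted p = 0.0345), when 817 genes in all were called. With pairwise interaction terms it also passed (adjusted p = 0.0451), when 391 genes were called.

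HERC6 and USP18 went the other way. HERC6 read 3.72, 3.73, 3.93 and 3.96 with the RUNX1 shRNA and 4.18, 4.25, 4.10 and 4.35 without it. The groups did not overlap, the nearest arrays differing by -0.14, with an estimate of -0.38 ± 0.07 (SE, adjusted p = 0.0892), also -0.38 without the library labelled shRUNX1. USP18 read 5.56, 5.24, 4.48 and 5.45 with it and 6.08, 5.60, 5.53 and 5.38 without it. USP18 was highest on shLuc and lowest on shRUNX1+shRUNX3, the groups overlapped, and the estimate was -0.46 ± 0.22 (SE, adjusted p = 0.278). It was -0.22 without shRUNX1+shRUNX3, -0.70 without the triple knockdown and -0.55 without the library labelled shRUNX1.

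OASL and XAF1 were higher on all 4 arrays with the RUNX1 shRNA, as were 5.15% of all genes tested, and HERC6 was lower, as were 4.73%. OASL lay between 4.13 and 4.22 with the RUNX1 shRNA and between 3.94 and 4.06 without it (estimate 0.17 ± 0.05, SE, adjusted p = 0.134). XAF1 lay between 8.29 and 8.41 with it and between 7.91 and 8.28 without it (0.27 ± 0.07, SE, adjusted p = 0.114). The 2 groups of XAF1 came within 0.01 of each other. Without the library labelled shRUNX1 the estimates were 0.17 and 0.30, and 8 members were higher without overlap (13.4% of all genes) and 1 lower (12.3%).

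With the RUNX3 shRNA, 0 members and 0 genes (0% in either direction) passed limma's adjusted threshold, and 6 members were lower and 0 higher at an unadjusted p under 0.05, against 4.82% of all genes lower and 4.57% higher. The median of the 26 estimates was -0.01, and of all genes 52.1% had estimates above 0 and 47.9% below. That median was -0.06 without the library labelled shRUNX1. Values follow for shRUNX3, shRUNX1+shRUNX3, shRUNX2+shRUNX3 and the triple knockdown, then for shLuc, shRUNX1, shRUNX2 and shRUNX1+shRUNX2. CMPK2, a mitochondrial nucleotide kinase, read 4.76, 4.62, 4.74 and 4.57 with the shRNA and 4.92, 4.83, 5.25 and 4.98 without it, an estimate of -0.32 ± 0.08 (SE, adjusted p = 0.358). OAS1 read 2.51, 2.84, 2.81 and 2.75 against 2.96, 3.01, 3.00 and 2.97 (-0.26 ± 0.08, SE, adjusted p = 0.440). These OAS1 levels all lie under the level filter, which the gene passed only on the DMSO array. Without the library labelled shRUNX1 the estimates were -0.34 for CMPK2 and -0.25 for OAS1.

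USP18 read 5.53, 4.48, 5.38 and 5.45 with the RUNX3 shRNA and 6.08, 5.56, 5.60 and 5.24 without it, with overlap (-0.41 ± 0.22, SE, adjusted p = 0.599). That estimate was -0.16 without shRUNX1+shRUNX3, -0.65 without the triple knockdown and -0.32 without the library labelled shRUNX1. Groups without overlap were found for CMPK2, OAS1 and HERC5, all lower with the RUNX3 shRNA, against 1.58% of genes tested lower and 1.61% higher. HERC5 lay between 4.30 and 4.69 with it and between 4.70 and 4.92 without it, so the nearest arrays were almost equal. SAMD9 joined these 3 without the library labelled shRUNX1 (3.16% of all genes lower). IFI6, the leading member for RUNX2, had a RUNX3 estimate of -0.01.

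The compounds were compared at the same dose and time, each on 1 array beside the same DMSO array, so both differences share that array. None of the 26 tested members differed 2-fold or more from DMSO with either compound. Under the level filter IFIT3 differed by -1.07 with Chb-M' (2.94 on DMSO, 1.87 on Chb-M'). Over all genes tested, 0.313% were at least 2-fold higher and 0.56% lower with Chb-M', and 0.14% higher and 0.156% lower with Chb-50. A limma fit that takes the spread from the knockdown arrays, and so assumes that the compound arrays vary like them, called 0 of 26 members for Chb-M', for Chb-50 and for their difference. At an unadjusted p under 0.05 it gave 1 member higher and 2 lower for Chb-M', against 6.31% and 7.59% of all genes, and 0 higher and 3 lower for Chb-50, against 3.94% and 5.24%. That fit called 0.132% of all genes higher and 0.477% lower for Chb-M', and 0% in each direction for Chb-50.

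Of the 26 tested members, 10 were above DMSO with Chb-M' (median difference -0.05) and 11 with Chb-50 (median -0.09), where 54.3% and 49.5% of all genes were above DMSO and 44.4% and 49% below. OAS1 reached the filter only through DMSO and MX1 only through Chb-M', and without them the counts were 9 and 10 of 24. The member higher with Chb-M' at an unadjusted limma p under 0.05 was MX1, and OAS1 was among those lower with both compounds. Both were tested only because of the array where they are highest, so they add no support to those counts. At 1.5-fold, 1 tested member was higher with Chb-M' (USP18; 2.25% of all genes) and 0 lower (3.21%), and with Chb-50 0 were higher (1.39%) and 2 lower (HERC6 and SAMD9L; 1.98%). USP18 was the furthest above with Chb-M': 5.53 on DMSO, 6.13 on Chb-M' and 5.61 on Chb-50. Next were MX1 (3.53, 3.82 and 3.67 in the same order) and IFITM3 (5.30, 5.53 and 5.45). OASL was the furthest above with Chb-50, at 4.54, 4.63 and 4.74.

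The members furthest below DMSO are given side by side for both compounds, which share that DMSO array. OAS1 read 4.18 on DMSO, 3.69 on Chb-M' and 3.65 on Chb-50. SAMD9L read 6.23, 5.75 and 5.50. MX2 read 4.05, 3.58 and 3.74, and HERC6 read 4.85, 4.52 and 3.95. Against DMSO, HERC6 with Chb-50 was the widest difference among the 26 tested members, at -0.90 (95% interval -1.24 to -0.55, adjusted p = 0.172).

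The direct comparison of Chb-M' with Chb-50 is the 1 pair of compounds in the series. HERC5 was higher with Chb-M' (4.82 against 4.23), a difference of 0.59 with a 95% interval of 0.26 to 0.92 (adjusted p over genes 0.442). HERC6 was next at 0.56 (0.22 to 0.91, adjusted p = 0.472), followed by USP18 at 0.52 (-0.51 to 1.55, adjusted p = 0.921). Lowest with Chb-M' were OAS2 (5.24 against 5.56, -0.32, interval -0.75 to 0.10), IRF9 (5.71 against 5.96, -0.24, -0.72 to 0.24) and PARP14 (6.79 against 7.005, -0.21, -0.70 to 0.27). No difference passed limma's adjusted threshold (0% of all genes in either direction), and 2 members, both higher with Chb-M', had an unadjusted p under 0.05 (3.82% of all genes higher, 3.33% lower). Of the 26 tested members HERC5 alone differed 1.5-fold, against 1.23% of all genes higher and 1.08% lower, and 17 of 26 members were higher with Chb-M' (52.7% of all genes, with 46% lower). Under the level filter IFIT1 read 2.50 with Chb-M' and 1.87 with Chb-50. For IFI6 the compounds differed by 7.38 against 7.19, and for ISG15 by 5.75 against 5.67.

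**Figure D4:**
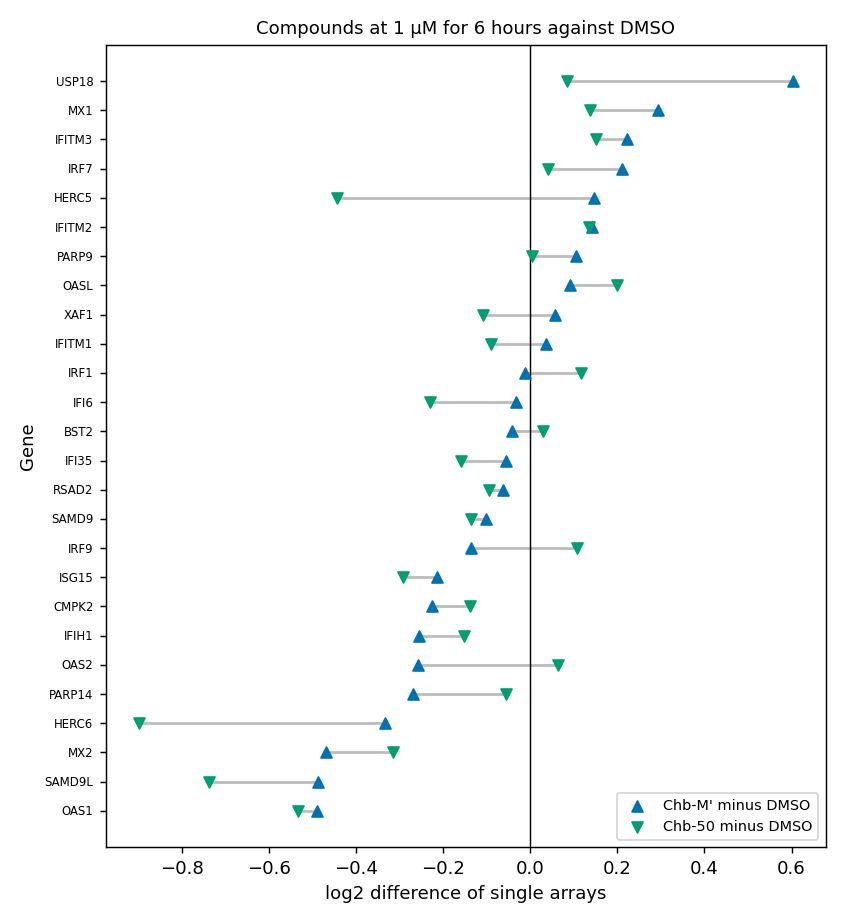
Log2 difference from the DMSO array for Chb-M' (triangles pointing up) and Chb-50 (triangles pointing down), 1 array each, for the 26 members tested; a grey line joins the 2 compounds. No point reaches a difference of 1 in size, the longest lines are those of HERC5, HERC6 and USP18, and OAS1, SAMD9L, MX2 and HERC6 lie left of 0 for both compounds.

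The members differed most between the 8 transduced arrays and the 3 others, a comparison added after the data were seen. Transduction, doxycycline, 24 against 6 hours and the treatment differ together here and cannot be told apart. Against DMSO, the shLuc array alone was at least 2-fold lower for 5 of 26 members (IFI6, OAS2, SAMD9L, OAS1 and IRF7) and 2-fold higher for 0, against 0.609% and 0.362% of all genes tested. Without OAS1 and MX1, which reached the level filter only on DMSO and on Chb-M', the count was 4 of 24. The shLuc array was above DMSO for 5 of the 26 members and below it for 21, with a median of -0.32, beside 51.2% of all genes above and a median of 0.01.

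A limma fit over the 11 arrays took the DMSO, Chb-M' and Chb-50 arrays as replicates of a single group, although their treatments differ. In that fit 12 of 26 members were lower on the transduced arrays and 0 higher, against 9.38% of all genes tested lower and 9.48% higher. Without OAS1 and MX1 the count was 10 of 24. Median differences were -0.33 for the members and 0.00 for all genes. The count was 12 without the library labelled shRUNX1, and 7 against the DMSO array alone with the pooled spread (IFI6, OAS2, OAS1, IRF7, MX1, OASL and HERC6), where 1.09% of all genes were lower. Without OAS1 and MX1 that count was 5 of 24.

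IFI6 was the widest. Its level lay between 5.45 and 6.38 on the 8 transduced arrays (median 5.87) and was 7.42 on DMSO, 7.38 on Chb-M' and 7.19 on Chb-50. All 8 were below all 3, the nearest arrays differing by -0.80, and the arrays with the RUNX2 shRNA were also below them. The difference was -1.43 ± 0.11 (SE, adjusted p = 0.000205), which is 37.1% of the level of the other arrays.

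The OAS family followed. OAS2 lay between 3.70 and 4.26 on the transduced arrays (median 4.18) and at 5.50, 5.24 and 5.56 on DMSO, Chb-M' and Chb-50. Its nearest arrays differed by -0.98, with a difference of -1.37 ± 0.09 (SE, adjusted p = 0.000146). OAS1 lay between 2.51 and 3.01, against 3.65 to 4.18, and OASL lay between 3.94 and 4.22, against 4.54 to 4.74. Both were called, by -0.98 (adjusted p = 0.00101) and -0.55 (adjusted p = 0.00075). OAS1 was tested only because of the DMSO array, where it is highest, so its call adds no support.

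IRF7 and IRF9, transcription factors of the response, were lower as well. IRF7, which drives interferon-alpha genes, lay between 4.36 and 4.77, against 5.48 to 5.69, a difference of -0.99 ± 0.08 (SE, adjusted p = 0.000205). IRF9, which contacts the ISRE, lay between 5.00 and 5.45, against 5.71 to 5.96, by -0.65 ± 0.10 (SE, adjusted p = 0.00279). With the mean of its 2 clusters the IRF9 difference was -0.37 and missed the threshold (adjusted p = 0.0607). IRF1 was the only one of 26 with all 8 transduced arrays above DMSO (5.38 to 5.84 against 5.34), and it was not called (0.18, adjusted p = 0.128).

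MX1 (2.72 to 2.95 against 3.53 to 3.82) and IFITM1 (6.81 to 7.60 against 7.99 to 8.12) were lower by -0.82 and -0.79. MX1 was tested only because of the Chb-M' array, where it is highest, so its call adds no support. Smaller differences were called for ISG15 (-0.40), SAMD9 (-0.39), PARP9 (-0.37) and BST2 (-0.24), with adjusted p between 0.00501 and 0.0254. PARP9 was the exception to full separation, since shRUNX1+shRUNX2 (4.82) lay above DMSO (4.78). PARP9 lost its call without shRUNX2, without the triple knockdown, without Chb-M' or without Chb-50, and BST2 lost it without Chb-50. HERC6 (-0.41), USP18 (-0.34), IFITM3 (-0.32), SAMD9L (-0.29) and RSAD2 (-0.23) did not pass, with adjusted p between 0.0884 and 0.334. XAF1, IFITM2 and IFIH1 differed by 0.02 or less in size.

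The 11 members under the level filter had no test in this fit, and their levels can be compared between arrays. Run with no level filter, the fit called 16 of 37 members lower and 0 higher, against 4.58% of 22109 genes lower. IFI44, IFI44L, EPSTI1 and IFIT3 were among the 16, at these low levels. IFI44, IFI44L, EPSTI1 and IFIT3 were below all 3 other arrays on all 8 transduced arrays, IFI44 at no more than 1.85 (median 1.56) against 2.13 to 2.58. IFIT3 nearly overlapped, with 1.59 to 1.85 against 2.94 on DMSO, 1.87 on Chb-M' and 2.34 on Chb-50. Counted over all 37 with no level filter, 15 members lay below all 3 others (40.5%, against 5.31% of 22109 genes) and 0 above (5.19%). Below DMSO alone on all 8 were 21 of 37 (16.9% of genes), and above it 1 of 37 (17.3%). Of the 20 members with an ISRE match in the promoter window and a level, 10 lay below all 3 others, as did 2 of 10 with no match and 3 of 7 with no promoter entry, a description without a test. Other interferon-induced effectors and MHC class I genes, with ISRE shares of 64.3% and 60%, had median differences of 0.01 and -0.07. A part of the ISRE in the difference was not tested.

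In the other interferon lists the medians lay nearer 0. Their calls stand beside 9.38% of all genes tested lower and 9.48% higher. Among receptor and signalling genes 3 of 18 were lower and 2 higher, with a median of 0.00, and among sensors 3 of 14 lower and 1 higher (-0.06). Among other effectors 3 of 25 were lower and 1 higher (0.01), and among MHC class I genes 2 of 17 lower and 1 higher (-0.07). Outside the members the widest was IRF4, a lymphoid and myeloid lineage factor, at 4.01 to 4.69 on the transduced arrays against 6.18 to 6.51 (-2.08, adjusted p = 3.77e-05). EIF2AK2, the kinase PKR, was lower by -0.61 (adjusted p = 0.00279), and the DNA sensor IFI16 by -0.51 (adjusted p = 0.00857). IFNGR1, a chain of the interferon-gamma receptor, was higher by 0.45 (adjusted p = 0.00431). Of 15 interferon ligand genes 13 stayed under the level filter, and the other 2, IFNA14 and IFNL3, were not called.

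Markers of other cell types also differed in this comparison, in which 9.38% of all genes tested were called lower and 9.48% higher. The summed level of 5 plasmacytoid dendritic cell markers lay between 22.9 and 25.0 on the transduced arrays and between 25.0 and 25.9 on the others. IL3RA, TCF4 and NRP1 were each called lower, and the defining markers CLEC4C and LILRA4 were under the level filter on every array. B cell markers summed to between 13.0 and 14.7 on the transduced arrays and between 13.7 and 14.6 on the others, with CD79A called lower. Erythroid markers summed to between 11.4 and 12.2 against 10.4 to 11.0, without overlap, with HBG1 called higher (0.39, adjusted p = 0.013). Epithelial markers summed to between 14.8 and 16.3 and to no more than 16.6 on the others, with overlap and 0 called. T cell markers summed to between 13.1 and 13.8 against 13.4 to 13.9, with 0 called. The 11 myeloid markers, 9 of them in the table, summed to between 64.7 and 65.9 against 64.3 to 65.3, with LYZ and MPO called higher and FLT3 lower. The part of these markers in the result was not tested.

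**Figure D5:**
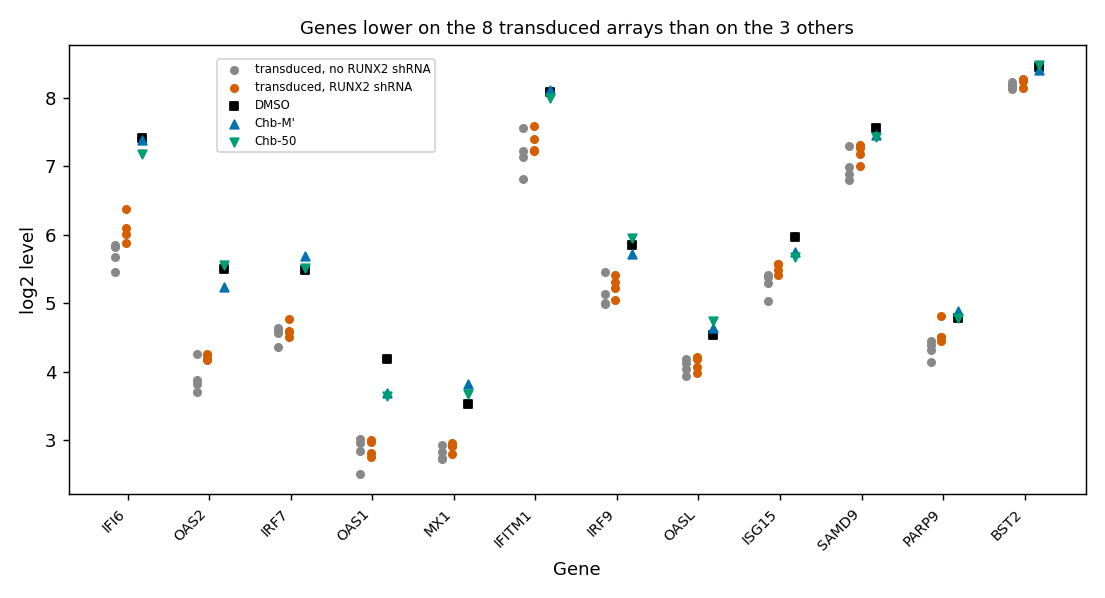
Log2 levels on all 11 arrays of the 12 members called lower on the transduced arrays: circles are the 8 transduced arrays, orange with and grey without the RUNX2 shRNA, and the square and triangles are the DMSO, Chb-M' and Chb-50 arrays. For 11 of the 12 every circle lies below the square and both triangles, and for PARP9 1 orange circle does not. OAS1 and MX1 are among the 12 only because they reached the level filter on DMSO and on Chb-M'.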

How the data were processed

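RMA, Transcriptome Analysis Console 1.0 and Affymetrix Expression Console 1.3.1 are named, with no role or order, per the submitters' processing notes. The authors deposited log2 values, 1 for each transcript cluster and array, between 0.48 and 12.74, a scale read from the values. Background signal was not used here, and the sources give no genome build for the probes. Of 53617 clusters, 23558 had 1 gene symbol.

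The members and lists were chosen with earlier results of these data known. Effects of the 3 shRNAs were fitted as additive terms on the 8 transduced arrays with limma 3.58.1 in R 4.3.3 (4 residual degrees of freedom, 3.19 prior), adjusted by Benjamini-Hochberg over 12147 genes at 0.05. Compounds used the same spread over 11 arrays. The comparison of 8 with 3 arrays was added after the data were seen. The scripts were tested on simulated data. Full values were given for the 8 members with the largest RUNX2 estimates, the 3 largest for RUNX1 and RUNX3, and the 3 highest and 3 lowest for each compound comparison; other members and called genes of the lists could be named. Alternatives were the level filter, normalization, clusters, variance trend, interaction terms, the fold threshold and leaving out each array.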

Additional observations from a re-analysis of the deposited data

Results flagged for a closer look

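Within the 4 arrays with and the 4 without the RUNX2 shRNA, 2 of 52 groups of the 26 members held an array far from the rest, where chance alone gives about 1 in 20. MX2 on shRUNX3 read 3.56, against 3.74 to 3.75 on the other 3 arrays without the RUNX2 shRNA. PARP9 on shRUNX1+shRUNX2 read 4.82, against 4.45 to 4.51 on the other 3 arrays with it.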

How the results depend on the processing

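For RUNX2, 0 genes were called under all alternatives run, and the members with an estimate above 0 went from 23 of 26 to 9 of 10 with the stricter level filter (6.08), where fewer were tested; leaving out 1 array gave 17 to 24. Members whose groups did not overlap went from 3 to between 3 and 5 with 1 array left out. The IFITM1 estimate reversed to -0.0078 without shRUNX1, in a range of -0.0078 to 0.35 with 1 array left out. RUNX1 calls over all genes went from 0 to 110 with the stricter filter, 68 with a variance trend and 391 with interaction terms, and ranged from 0 to 817 with 1 array left out, 817 being without shRUNX1; for RUNX3 that range was 0 to 1. Genes past the fold threshold went from 106 to 663 for Chb-M', from 36 to 409 for Chb-50 and from 24 to 281 for their difference at 1.5-fold, and to 62 for Chb-50 and 53 for the difference with no level filter. The 74 pooled calls for Chb-M' became 7 with no filter and 49 with the mean of clusters, and ranged from 0 to 77 with 1 array left out. Members lower on the transduced arrays went from 12 of 26 (9.38% of all genes) to 16 of 37 with no level filter (4.58%). Against DMSO alone, which is 1 array, fewer members and a smaller share of all genes were called, as given above. The cause was not tested. Of 480 values of the named genes over the alternatives run for each, 465 kept direction and, except for the compounds, side of the threshold. Compound values were compared by direction only. Of the rest, 12 missed the threshold, all in the comparison of transduced arrays, 2 passed and 1 reversed. No paired analysis was possible because every label carries replicate number 1; the pairs of arrays in the report differ by a shRNA and are not numbered replicates. With 1 array per condition, small differences are limited by the number of arrays.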
